A study of Mus musculus with 3 samples.

Results

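The CXC and CX3C chemokine receptor genes of mouse regulatory T cells were described here: Cxcr2, Cxcr3, Cxcr4, Cxcr5, Cxcr6 and Cx3cr1, 6 of the 22457 genes in the deposited count tables. They were picked by name, from the Ensembl identifier of each row matched to GENCODE symbols, and all 6 were found. The material was sheared polyA plus RNA of primary regulatory T cells of adult mice aged 4 months, and the labels trace the cells to haematopoietic cells of the bone marrow. The 3 libraries were technical replicates 1, 2 and 3 of biological replicate 1, with no strain, genotype, treatment or control group named, so that levels could be described and libraries compared with each other but conditions could not. Nothing in the labels gives the sort, the purity or the number of animals.

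Chemokine receptors are membrane proteins with 7 helices that couple to inhibitory G proteins and turn a chemokine gradient into directed movement and firm adhesion. CXCR3 answers to the interferon-induced ligands CXCL9, CXCL10 and CXCL11 and leads T cells into inflamed tissue. CXCR5 answers to CXCL13 and leads B cells, follicular helper cells and follicular regulatory T cells into B cell follicles. CXCR6 binds CXCL16, CXCR4 binds CXCL12 and holds cells in the bone marrow, CX3CR1 binds CX3CL1 and marks monocytes and some killer cells, and CXCR2 binds CXCL1, CXCL2 and related ligands on neutrophils.

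Libraries 1, 2 and 3 summed to 3206781, 3228215 and 2872350 counts. Levels are given as CPM, the count over the total of its library times 1e+06. The floor of 3 counts equalled 0.936, 0.929 and 1.04 CPM. The defining gene Foxp3 had 455, 507 and 432 counts in libraries 1, 2 and 3, so the cell type label matched its marker. All 8 regulatory T cell markers reached 1 CPM in every library. Other cells' markers were present too and shifted between libraries. The summed level of 10 B cell markers was 296, 380 and 515 CPM in libraries 1, 2 and 3, that of 12 neutrophil markers 15.3, 99.1 and 24.0 CPM, and that of 9 matched erythroid markers 9.36, 221 and 185 CPM. Monocyte or macrophage markers summed to 89.8, 93.9 and 119 CPM and NK cell markers to 135, 167 and 185 CPM. CD8 T cell markers summed to 38.4, 49.3 and 47.3 CPM and dendritic cell markers to 9.36, 11.2 and 15.7 CPM. Single genes carried much of some sums. Nkg7 gave 99.5, 124 and 124 CPM of the NK cell sum, while Ncr1 had 0, 6 and 4 counts and Klra8 0, 4 and 0. Cd8b1 gave 23.4, 28.8 and 27.9 CPM of the CD8 T cell sum. Ms4a6c gave 39.9, 58.2 and 47.0 CPM of the monocyte or macrophage sum.

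The 250 bases before the RefSeq start (GRCm38.p6) are shown for the receptor genes with the highest level, an intermediate level and the lowest level among the 4 that were abundant enough to be tested. Capitals mark matches, on either strand, to a TATA box (TATAAA) or a GC box (GGGCGG). The T-box core GGTGTG and the GATA motif AGATAA were also searched.
Cxcr3 (chrX:101734148-101734397, minus strand): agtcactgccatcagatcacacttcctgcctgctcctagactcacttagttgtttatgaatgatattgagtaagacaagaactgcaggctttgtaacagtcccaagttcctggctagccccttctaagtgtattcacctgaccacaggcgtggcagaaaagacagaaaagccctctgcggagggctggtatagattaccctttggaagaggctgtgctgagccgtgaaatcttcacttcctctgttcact
Cxcr6 (chr9:123806227-123806476, plus strand): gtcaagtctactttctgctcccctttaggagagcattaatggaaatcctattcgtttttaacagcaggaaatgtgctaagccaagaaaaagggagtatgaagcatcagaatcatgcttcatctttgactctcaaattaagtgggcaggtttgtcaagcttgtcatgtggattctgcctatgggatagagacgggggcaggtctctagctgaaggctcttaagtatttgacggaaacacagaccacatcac
Cxcr4 (chr1:128592300-128592549, minus strand): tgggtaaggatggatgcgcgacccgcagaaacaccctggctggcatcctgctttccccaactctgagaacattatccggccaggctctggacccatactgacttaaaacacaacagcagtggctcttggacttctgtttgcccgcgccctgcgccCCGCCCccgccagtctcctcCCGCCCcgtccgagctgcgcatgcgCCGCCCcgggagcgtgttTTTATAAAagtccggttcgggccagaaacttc

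Among the 5 receptor genes with a listed promoter (all but Cxcr5), Cxcr4 alone held any of the 4 motifs. It had 3 GC boxes that began 95, 75 and 50 bases before the start and 2 overlapping TATA matches that began at 32 and 30 bases. A GC box occurred in 32.7%, a TATA match in 12.4%, a T-box core in 16.3% and a GATA match in 9.99% of 32851 promoter windows of this length. Cxcr4 also had 19 CpG dinucleotides, more than 80.3% of those windows, whereas Cxcr3 and Cxcr6 had 3 each, Cx3cr1 had 4 and Cxcr2 had 1 against a median of 6. These matches describe the letters of the windows only. RefSeq and GENCODE place some starts differently. The Cxcr3 window overlaps in part the GENCODE model of that gene, and the Cx3cr1 window lies wholly within its model.

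Regulatory T cell RNA carried Cxcr3 most abundantly of the 6 receptors, then Cxcr5 and Cxcr6, with Cxcr4 far lower and Cx3cr1 and Cxcr2 at or near the floor. Cxcr3 reached 272, 285 and 238 CPM in libraries 1, 2 and 3, from 872, 921 and 684 counts. Cxcr5 reached 158, 141 and 106 CPM, from 508, 454 and 304 counts. Cxcr6 stood at 65.5, 76.8 and 82.9 CPM, from 210, 248 and 238 counts. These 3 genes were thus well measured in every library, with the lowest value of Cxcr3 and of Cxcr5 in library 3 and that of Cxcr6 in library 1. In bulk RNA, fewer cells of a type and less RNA per cell cannot be told apart.

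**Figure D1:**
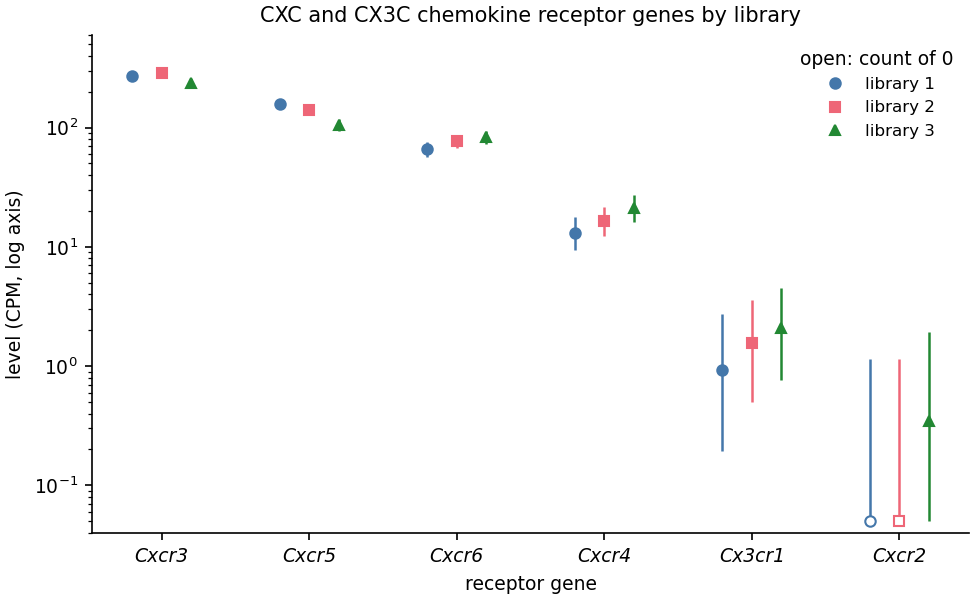
Level of each receptor gene in CPM (log axis) in libraries 1, 2 and 3, with 95% exact Poisson intervals of the count as lines, which are cut at 0.05 CPM. Open symbols stand for a count of 0. Cxcr3 lies between 238 and 285 CPM, Cxcr4 between 13.1 and 21.2 CPM, and Cxcr2 has 1 count in all.

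Cxcr4, the receptor of bone marrow retention, was present at a low level. It had 42, 53 and 61 counts in libraries 1, 2 and 3, or 13.1, 16.4 and 21.2 CPM. Library 3 was the highest and library 1 the lowest, but the 95% exact Poisson intervals of those libraries, 16.2 to 27.3 CPM in library 3 and 9.44 to 17.7 CPM in library 1, overlapped. Intervals and floors cover counting error only.

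Cx3cr1, the fractalkine receptor, had 3, 5 and 6 counts, or 0.936, 1.55 and 2.09 CPM. Its intervals ran from 0.193 to 2.73 CPM in library 1 and from 0.767 to 4.55 CPM in library 3, so no difference between libraries could be detected at this depth. Cxcr2, the neutrophil receptor, had 0, 0 and 1 counts. By the floor of 3 counts, a count of 0 allows up to 0.936 CPM in library 1 and 0.929 CPM in library 2. The 95% exact Poisson intervals, which are 2-sided, reach 1.15 and 1.14 CPM there. In library 2, where Cxcr2 had no count, the 12 neutrophil markers ranged widely. Ngp had 96 counts, S100a8 77, Mmp9 55, Camp 36, S100a9 29, Ltf 13 and Retnlg 8. Csf3r had 3, Elane 2 and Ly6g 1, while Mpo and Mmp8 had 0. Of 7 monocyte or macrophage markers tested 4 passed, against 27.6% of all genes tested, and they did not share a direction. Csf1r, Cd68 and Itgam were lowest in library 2 and Ms4a6c was lowest in library 1. Whether other cells contributed to these receptor counts was not tested.

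Levels of different genes were compared per kilobase of coding sequence, which is similar in the 6 genes (1062 to 1122 bases). On this scale Cxcr3 stood at 241 ± 22.1, Cxcr5 at 120 ± 23.8, Cxcr6 at 69.9 ± 8.21, Cxcr4 at 15.7 ± 3.80, Cx3cr1 at 1.44 ± 0.543 and Cxcr2 at 0.108 ± 0.187 CPM per coding kb (mean ± SD over the 3 libraries). The ranges of neighbours in this order did not overlap for any of the 5 pairs, though for Cx3cr1 and Cxcr2 both are at or near the floor. Cxcr3 was higher than 96.8% of the 21352 protein-coding genes, Cxcr5 than 91.4%, Cxcr6 than 85.2%, Cxcr4 than 66.7%, Cx3cr1 than 50.03% and Cxcr2 than 36.9%. Per kilobase of exon, Cxcr5 (40.5 ± 8.03) and Cxcr6 (38.9 ± 4.57) no longer separated, since the Cxcr5 model has 3332 exon bases and the Cxcr6 model 1931. The Cxcr5 to Cxcr6 ratio was then 1.40, 1.06 and 0.740 in libraries 1, 2 and 3, and the rest of the order stayed as it was.

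Set among the other chemokine receptors on the same scale, Cxcr3 came directly after Ccr7, the lymph node homing receptor, at 339 ± 15.5 CPM per coding kb. It lay above Ccr8, a receptor of tissue regulatory T cells, at 168 ± 23.2. Cxcr5 lay between Ccr6 at 127 ± 6.11 and Ccr2 at 97.4 ± 11.1, and its range overlapped those of both. Cxcr6 lay between Ccr2 and Ccr4 (64.8 ± 6.70), a skin homing receptor, and Cxcr4 lay near Ccr3 (14.5 ± 1.26). These places among the other receptors rest on coding length and do not all hold per kilobase of exon. Ccr2 had 109 ± 12.4 CPM over 6760 exon bases and Cxcr6 75.1 ± 8.82 CPM over 1931. Per kilobase of exon Ccr2 thus lay below Cxcr6. Ccr8 has 1175 exon bases against 1731 in Cxcr3, which brought these 2 genes close together on that scale. All 10 CC receptor genes reached 1 CPM in every library, against 4 of the 6 CXC and CX3C receptor genes and 1 of 7 atypical and other receptors. That last gene was Ccrl2, at 41.9 ± 7.39 CPM per coding kb, while Ackr3, a scavenger of CXCL12, had 0, 0 and 1 counts and Cxcr1 had 3, 0 and 0.

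**Figure D2:**
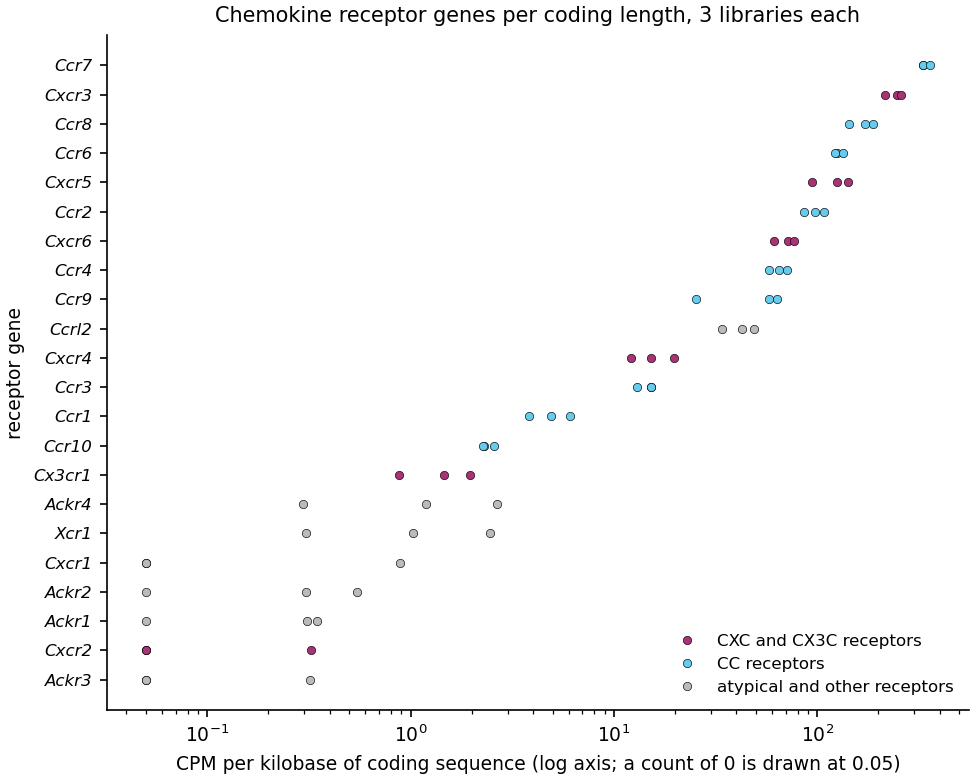
Level of 22 chemokine receptor genes in CPM per kilobase of coding sequence (log axis), 1 point per library, with counts of 0 drawn at 0.05. Cxcr3 at 241 follows Ccr7 at 339, and Cxcr4 at 15.7 lies beside Ccr3 at 14.5.

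The next question was whether a receptor differed between the technical replicates by more than counting error. Cxcr5 was lower in library 3, and Cxcr3 was lower there by a smaller amount, whereas for Cxcr4 and Cxcr6 no difference passed the test. The 3 counts of each gene were set against Poisson expectation by a chi-square test. It covered the 10282 genes whose mean count reached 10, with Benjamini-Hochberg adjustment over all of them. The test measures the spread between libraries of the same biological replicate, and 27.6% of all genes tested passed it. Of the 6 receptors 4 were tested and 2 passed, Cxcr5 (adjusted p = 3.27e-06, chi-square) and Cxcr3 (adjusted p = 0.0204, chi-square). Both were lowest in library 3. Of the 10282 genes tested, 813 (7.91%) passed with their lowest scaled count in that library. Without library 3 neither receptor passed, while 19.5% of genes did. Without library 2, where 9.40% of genes passed, Cxcr5 passed and Cxcr3 did not.

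The Cxcr5 difference amounted to 0.666-fold in library 3 over library 1 (95% exact binomial interval 0.576 to 0.769, adjusted p = 2.15e-06) and 0.770-fold in library 3 over library 2 (0.664 to 0.892, adjusted p = 0.00580). Its values in libraries 2 and 1 gave 0.865-fold (0.761 to 0.984, adjusted p = 0.108, exact binomial). Cxcr3 in library 3 was 0.854-fold that in library 2 (0.772 to 0.944, adjusted p = 0.0176, exact binomial) and 0.873-fold that in library 1 (0.789 to 0.966, adjusted p = 0.0779, exact binomial). Each gene's highest scaled count exceeded its lowest by a median of 1.25-fold over all genes tested and 1.39-fold over those that passed. Cxcr5 lay above both medians, and Cxcr3, at 1.17-fold, lay below both.

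Cxcr4 had the widest ratio of the 4 tested receptors and the fewest counts. Library 3 over library 1 was 1.62-fold (95% exact binomial interval 1.07 to 2.46, adjusted p = 0.138), and the test over the 3 libraries gave an adjusted p of 0.126 (chi-square). For Cxcr6 the same ratio was 1.26-fold (1.04 to 1.53, adjusted p = 0.120, exact binomial), with an adjusted p of 0.127 over the 3 libraries (chi-square). Both intervals leave out equality before adjustment, and neither gene passed after it. With a variance that adds the 12.5% coefficient of variation typical of these libraries (negative binomial), 0.904% of genes tested passed and none of the 4 receptors did.

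**Figure D3:**
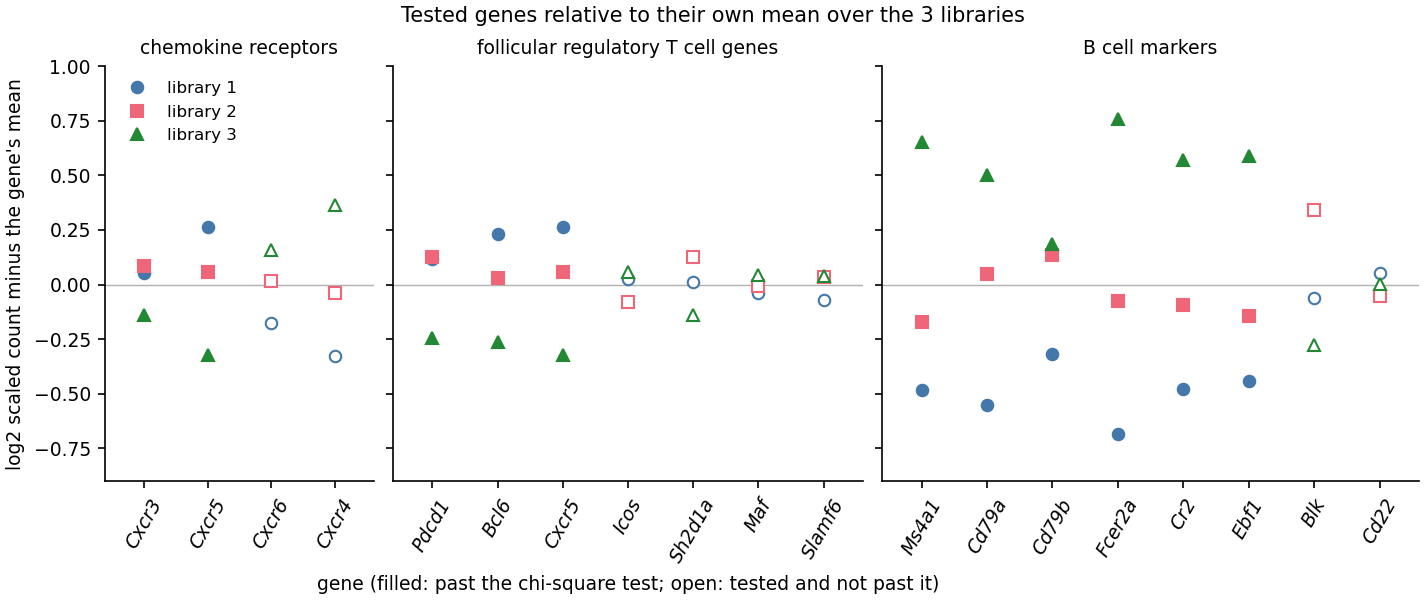
Log2 scaled count of each tested gene in libraries 1, 2 and 3 minus the gene's own mean, for receptors, follicular regulatory T cell genes and B cell markers. Filled symbols mark genes past the chi-square test, and Cxcr5, Pdcd1 and Bcl6 have library 3 lowest while the B cell markers with filled symbols have it highest.

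Cxcr5 is shared by follicular T cells and B cells, so both lists were set beside it. Of 8 follicular regulatory T cell genes 7 were tested and 3 passed, Cxcr5 itself, Pdcd1 and Bcl6, all lowest in library 3, where 7.91% of all genes tested passed with their lowest value. Beside Cxcr5 that is 2 of 6 genes, near the 27.6% of all genes tested that passed in any direction. Pdcd1, the gene of the inhibitory receptor PD-1, had 261, 269.8 and 204 CPM in libraries 1, 2 and 3 (adjusted p = 1.64e-05, chi-square). Bcl6, the transcription factor of follicular cells, had 78.3, 69.7 and 55.7 CPM (adjusted p = 0.0159, chi-square). Icos, Slamf6, Sh2d1a and Maf did not pass, and Ascl2 had too few counts to be tested. Sh2d1a had its lowest scaled count in library 3, whereas Icos, Slamf6 and Maf had their highest there.

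Most B cell markers went the other way. Of 9 tested, 7 passed, against 27.6% of all genes tested, and all 7 were highest in library 3, as was the case for 7.75% of all genes tested. Cd22 (172, 165 and 149 counts) and Blk (22, 30 and 17 counts) did not pass. Cd22 had its highest scaled count in library 1, and Blk its lowest in library 3. Ms4a1, the CD20 gene, had 121, 155 and 239 counts in libraries 1, 2 and 3 (adjusted p = 2.15e-12, chi-square). The count of Cxcr5 per count of Ms4a1 was therefore 4.20 (95% exact binomial interval 3.44 to 5.16) in library 1, 2.93 (2.44 to 3.54) in library 2 and 1.27 (1.07 to 1.51) in library 3. Cxcr4, which B cells also express, had its highest value in library 3 like the 7 markers that passed. So did Cxcr6, and neither receptor passed the test. The count of Cxcr4 per count of Ms4a1 was 0.347 (0.238 to 0.497), 0.342 (0.245 to 0.470) and 0.255 (0.189 to 0.339) in libraries 1, 2 and 3. The part of B cells in the receptor counts was not tested.

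Ratios between receptors within a library are free of the scaling. Cxcr5 per Cxcr4 was 12.1 (95% exact binomial interval 8.82 to 17.0) in library 1, 8.57 (6.43 to 11.6) in library 2 and 4.98 (3.77 to 6.67) in library 3, and the intervals of libraries 1 and 3 did not overlap. Cxcr5 per Cxcr6 was 2.42 (2.06 to 2.85), 1.83 (1.56 to 2.15) and 1.28 (1.07 to 1.52), again with libraries 1 and 3 apart. Cxcr3 per Cxcr4 was 20.8 (15.2 to 29.0), 17.4 (13.2 to 23.4) and 11.2 (8.62 to 14.8), and Cxcr3 per Cxcr6 was 4.15 (3.57 to 4.85), 3.71 (3.22 to 4.29) and 2.87 (2.48 to 3.34). Library 3 thus had less Cxcr3 and Cxcr5 for each count of Cxcr4 or Cxcr6 than library 1. This fall follows from levels known before the pairs were formed. Scaled counts of Cxcr3 and Cxcr5 were lowest in library 3, and those of Cxcr4 and Cxcr6 were highest there. The ratios restate those levels and are no separate test of a difference. Their intervals cover counting error only, not the choice of pairs, and neither Cxcr4 nor Cxcr6 passed the chi-square test. Relative to Foxp3, which did not pass the test (adjusted p = 0.623, chi-square), Cxcr5 stood at 1.12, 0.895 and 0.704 and Cxcr3 at 1.92, 1.82 and 1.58.

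**Figure D4:**
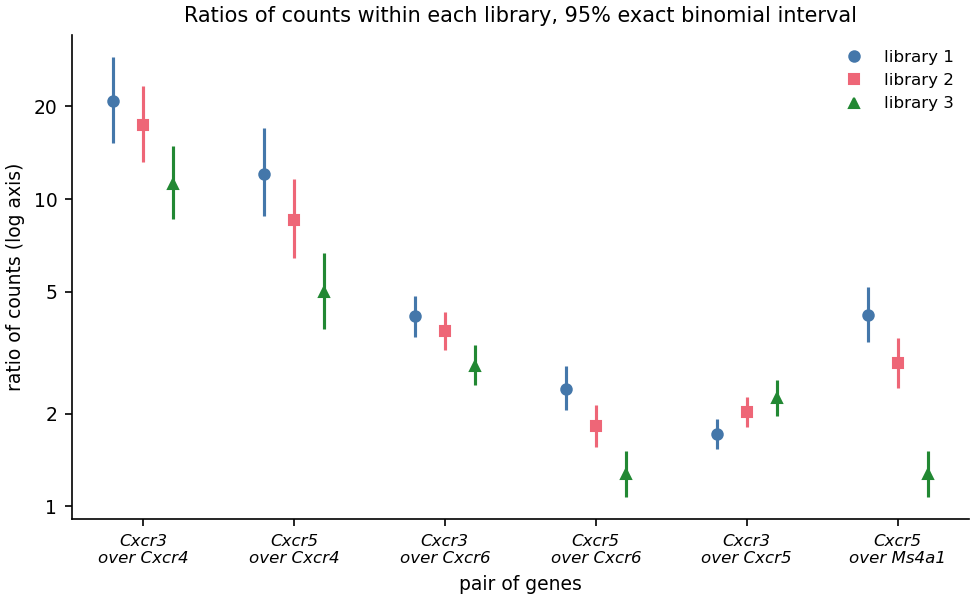
Ratio of the counts of gene pairs within each library (log axis), with 95% exact binomial intervals as lines. Cxcr5 per Cxcr4 is 12.1 in library 1 and 4.98 in library 3, and Cxcr5 per Ms4a1 is 4.20 in library 1 and 1.27 in library 3.

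Unscaled counts differed between libraries by amounts that varied with the counts per base of a gene. Cxcr3 had 0.750 counts per coding base, Cxcr5 0.376, Cxcr6 0.216 and Cxcr4 0.0483. The log2 ratio of unscaled counts, library 3 over library 1, had a median of -0.11 in the 891 tested genes whose density was 0.5 to 1. It was -0.16 in genes from 0.2 to 0.5 and -0.21 in genes below 0.2, and the totals gave -0.16. The same unscaled ratio was -0.35 for Cxcr3, -0.74 for Cxcr5, 0.18 for Cxcr6 and 0.54 for Cxcr4, so Cxcr3 and Cxcr5 were below and Cxcr6 and Cxcr4 above the median of the genes of their own range.

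The genes whose pattern over the 3 libraries was most like a receptor's were found by the Euclidean distance between centred log2 scaled counts, among 6142 other protein-coding genes. For Cxcr5 they were Cd101 (503, 444 and 297 counts, distance 0.0152) and Nrde2 (273, 248 and 164 counts, distance 0.0174), and 48 genes lay within 0.1. For Cxcr3 they were Yeats2 (140, 148 and 110 counts, distance 0.00170) and Tubb4b (284, 299 and 222 counts, distance 0.00394), with 491 genes within 0.1. How often such likeness arises without a shared cause among 3 libraries was not tested.

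Ligands of these receptors were hardly present. Of 16 CXC and CX3C ligand genes only Cxcl10, the interferon-induced ligand of CXCR3, reached 1 CPM in every library, with 19, 38 and 25 counts (8.80 ± 2.92 CPM), and it did not pass the test (adjusted p = 0.141, chi-square). Cxcl12, Cxcl1, Cxcl14 and Cxcl15 had no count in any library. Cxcl16, the ligand of CXCR6, and Cx3cl1, the ligand of CX3CR1, each had 3, 1 and 0 counts, and Cxcl13, the ligand of CXCR5, had 0, 6 and 2.

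Genes of the machinery behind the receptors ranged from absent to abundant. Of 9 G protein subunit genes 7 reached 1 CPM, led in CPM by Gnai2 and Gnai3, the inhibitory alpha subunits, at 331 ± 36.0 and 212 ± 3.58 CPM. The median of the 9 was 37.5 CPM, and Gnai1 had no count in any library. Of 7 tested, 3 passed, against 27.6% of all genes tested. All 3 (Gnai2, Gnb2 and Gnb4) were lowest in library 1, where 6.95% of all genes tested passed with their lowest value. Among the regulators of G protein signalling, which shorten the signal, Rgs1 stood at 575 ± 21.7 and Rgs10 at 503 ± 12.4 CPM per coding kb. Gnai2 stood at 311 ± 33.8 on that scale. In CPM, Rgs1 stood at 360 ± 13.6 and Rgs10 at 273 ± 6.72, beside 331 ± 36.0 for Gnai2. The Rgs1 model has 627 coding and 6947 exon bases, the Gnai2 model 1065 and 3779. The order of Rgs1 and Gnai2 thus depends on the length used. Of 7 regulator genes tested only Rgs16 passed, with 105, 109 and 49 counts (adjusted p = 0.00127, chi-square). Like Cxcr3 and Cxcr5, Rgs16 was lowest in library 3.

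Receptor shut-off genes included the arrestin gene Arrb2 (177 ± 9.51 CPM), the receptor kinase gene Grk2 (250.3 ± 27.7 CPM) and the ubiquitin ligase gene Itch (202 ± 41.1 CPM). Of 7 tested, 2 passed, near the share of all genes, Grk2 (highest in library 2) and Itch (lowest there). All 17 genes from the receptor to the motile machinery reached 1 CPM, and 10 of 17 tested passed, against 27.6% of all genes tested. Of the 10, 7 were lowest in library 2, as 12.7% of all genes tested were, and 6 were highest in library 3, as 7.75% were. The 10 included Rac2, a GTPase of blood cells, at 726 ± 47.4 CPM per coding kb. Dock2, its exchange factor, stood at 316 ± 9.15 and Coro1a, an actin regulator, at 684 ± 40.8, and both passed. The widest of the 10, Was and Rac1, were highest in library 2. In them the highest library exceeded the lowest by 1.92-fold and 1.60-fold (adjusted p = 4.1e-08 and 0.0208, chi-square). Proteases that trim chemokines or their receptors were present as well. Dpp4 stood at 289 ± 19.0, Adam10 at 227 ± 8.99 and Adam17 at 191 ± 26.2 CPM, and Dpp4 and Adam17 passed, with library 2 lowest, where 12.7% of all genes tested passed with their lowest value.

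Of 8 transcription factor genes listed as linked to these receptors, all reached 1 CPM. Whether each acts on them in these cells was not tested. Of 7 tested, 2 passed, Bcl6 and Id2 (adjusted p = 0.0159 and 0.0323, chi-square), near the 27.6% of all genes tested. Foxo1 and Id2 led the list at 138 ± 3.74 and 133 ± 16.0 CPM, ahead of Prdm1 at 96.8 ± 4.06 CPM.

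The receptor genes are spread over 3 chromosomes. Identifiers are those of the count tables and coordinates those of GENCODE M21 on GRCm38. Cxcr2 (ENSMUSG00000026180.8) lies on chromosome 1 at 74153989 to 74161246 on the plus strand and Cxcr4 (ENSMUSG00000045382.6) on chromosome 1 at 128588199 to 128592293 on the minus strand. On chromosome X, Cxcr3 (ENSMUSG00000050232.6) occupies 101731535 to 101734269, minus strand. The other 3 lie on chromosome 9. Cxcr5 (ENSMUSG00000047880.10) spans 44511787 to 44561877 on the minus strand and shares 110 exon bases with Bcl9l on the other strand, which had 83, 126 and 111 counts. Cxcr6 (ENSMUSG00000048521.7) spans 123806475 to 123811760 on the plus strand, inside Fyco1 on the minus strand, with 0 shared exon bases. Fyco1 had 801, 682 and 571 counts. Cx3cr1 (ENSMUSG00000052336.6) spans 119901616 to 120069879 on the minus strand, a model that reaches over several other genes. No strand setting is given, so reads of such overlapping genes cannot be told apart where exons are shared.

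Cxcr6 belongs to a cluster of receptor genes, and its neighbours there had very different levels. Ccr9, a gut homing receptor 128 kb before it, had 206, 91 and 201 counts (adjusted p = 1.28e-12, chi-square), with library 2 lowest. Xcr1, a dendritic cell receptor 45.8 kb after Cxcr6, had 8, 1 and 3 counts. Further on, Ccr1 had 13, 21 and 15 counts, Ccr3 had 45, 53 and 47, and Ccr2 had 309, 353 and 348. Of the 5 tested genes named here, Cxcr6 included, only Ccr9 passed. In the other 4 (Cxcr6, Ccr1, Ccr2 and Ccr3) the lowest scaled count was in library 1.

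**Figure D5:**
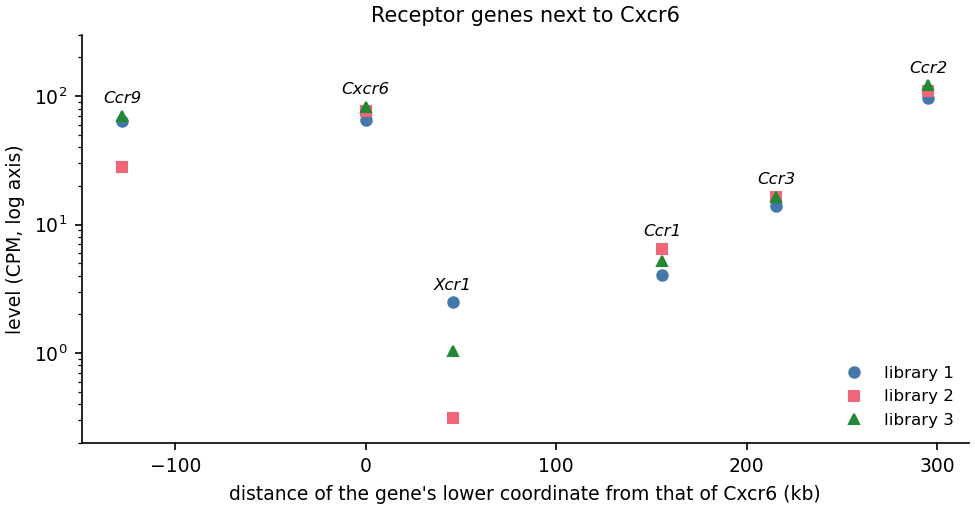
Level in CPM (log axis) of 6 receptor genes within 1000 kb of Cxcr6, Cxcr6 included, against the distance of each gene's lower coordinate from that of Cxcr6, 1 symbol per library. Cxcr6 at 65.5 to 82.9 CPM and Ccr2 at 96.4 to 121 CPM stand far above Xcr1 between them.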

How the data were processed

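PolyA plus RNA-seq counts of 3 technical replicates of 1 biological replicate were used. The deposited tables hold whole-number counts per gene, not normalized by the authors, made on mm10 with GENCODE M4 per the descriptions deposited with the files. Aligner, counting program, strand setting and duplicate handling: not given in the sources used here. Of the identifiers 22195 matched GENCODE M21 symbols and 262 did not. Coding length is the longest coding sequence of a gene in M21, and exon length its merged exons, so lengths are those of M21 and counts those of M4. Promoter sequences are from RefSeq.

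CPM were counts over the library total. The chi-square and exact binomial tests used totals times TMM factors from edgeR 4.0.16 (0.990, 1.02 and 0.993), a mean count of at least 10, and Benjamini-Hochberg adjustment at 0.05 across all genes tested. The chi-square test had 2 degrees of freedom. Scaled counts are counts over these library sizes. Both tests were tried on simulated counts with Poisson spread only and known changes in library 2. Such counts lack the added spread of the real libraries, so they do not show how the tests behave under it. Alternatives included size factors of DESeq2 1.42.0, unadjusted totals, TMM factors from low-density genes (at most 0.5 counts per coding base), other count minimums, a negative binomial variance, exon length, detection at 0.5 and 5 CPM, and leaving out each library. The work ran in R 4.3.3 and Python 3.11.15, with scipy 1.17.1 for tests, pandas 2.3.3 and numpy 2.4.6 for tables and matplotlib 3.10.9 for figures.

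The receptor genes, the 19 lists (172 entries, 171 matched, all but the erythroid entry Ahsp) and the tests were chosen with earlier results of these data known. The naming rule took the receptors, up to 4 of the highest genes of each list, list genes past the test with a ratio of highest to lowest library of at least 1.5, and the 2 genes most like each receptor that passed, among genes with a mean count of at least 100. Genes outside it (lower receptors, ligands and neutrophil markers, Blk, Foxp3, Maf, Tbx21) were chosen after their values were seen. So were the cluster around Cxcr6, the motifs and the gene pairs. Some genes of the lists are counted in totals but not reported here by name.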

Additional observations from a re-analysis of the deposited data

How the results depend on the processing

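Cxcr5 and Cxcr3 passed the chi-square test with DESeq2 size factors, plain totals, TMM factors from low-density genes, no count minimum and a minimum of 30. With the negative binomial variance, whose added spread was estimated from the same 3 libraries, 0 receptors passed. The log2 differences stayed at 0.59 for Cxcr5 (library 1 over library 3, adjusted p = 0.978) and 0.23 for Cxcr3 (library 2 over library 3, adjusted p = 1.00). In the same fit 1 gene of the other receptor, ligand and signalling lists passed instead of 23, and 15 marker genes instead of 29. Leaving out each library gave 0 to 2 receptors past the test, 9 to 17 genes of the other lists and 17 to 20 marker genes, with fewer samples in each fit. The share of all genes tested that passed was then 16.5% without library 1, 9.40% without library 2 and 19.5% without library 3, against 27.6% with all libraries, and 0.904% with the negative binomial variance. Cxcr4 and Cxcr6 passed under none of the alternatives that could test them, and a library left out that was a gene's highest or lowest gave no ratio. Per kilobase of exon the levels were 153 for Cxcr3, 40.5 for Cxcr5, 38.9 for Cxcr6, 9.36 for Cxcr4 and 0.338 CPM for Cx3cr1. The number of receptors that reached the detection level was 4, and 5 without library 1 or at 0.5 CPM. Depth limits Cxcr2 and Cx3cr1, whose counts lie at or near the floor. No paired analysis was possible because the labels give 1 group.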

Other observations

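Tbx21, the gene of the transcription factor T-bet that acts on Cxcr3, was chosen after its values were seen. It had 13, 21 and 15 counts in libraries 1, 2 and 3 (5.26 ± 1.23 CPM, SD over the 3 libraries), or 3.31 ± 0.771 CPM per coding kb. Cxcr3 stood at 241 ± 22.1 CPM per coding kb in the same libraries. Tbx21 did not pass the chi-square test between libraries (adjusted p = 0.589).

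Among the CC receptor genes, 9 were tested and 2 passed, Ccr9 and Ccr8, against 27.6% of all genes tested. Ccr8 had 583, 646 and 435 counts (adjusted p = 0.00148, chi-square), so that it was lowest in library 3 as Cxcr3 and Cxcr5 were. Cd4 was also lowest there, with 1983, 1721 and 1440 counts (adjusted p = 4.86e-09, chi-square), while Il2ra, with 1217, 1107 and 1252 counts, was highest there (adjusted p = 5.63e-08, chi-square).

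Of all genes tested 27.6% passed. Of the marker genes tested, those past the chi-square test were 2 of 8 for regulatory T cells, 7 of 9 for B cells, 4 of 5 for neutrophils, 4 of 7 for monocytes or macrophages, 2 of 3 for NK cells, 2 of 3 for CD8 T cells, 1 of 2 for dendritic cells and 7 of 7 for erythroid cells. The share for regulatory T cell markers was thus near that of all genes.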
